A study of Mus musculus with 384 samples.

Results

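Iron storage and transport genes were examined in single cells of mouse kidney: the ferritin chains Fth1 and Ftl1, the heme oxygenase Hmox1, the iron exporter Slc40a1 (ferroportin), the phagosomal metal transporter Slc11a1 and the transferrin receptor Tfrc. The 6 genes were chosen by symbol from the 40594 genes shared by the deposited count tables, and each symbol belonged to 1 gene identifier. The cells were sorted into wells, 1 cell a well, from 2 gates: PDGFRB+CD45+ (CD45+ below) and PDGFRB+CD45- (CD45- below). The PDGFRB receptor marks pericytes and fibroblasts, and CD45, a surface phosphatase encoded by Ptprc, marks leukocytes. Each gate filled 1 plate of 96 wells in batch 1 and 1 plate in batch 2, so there were 4 plates. All groups came from kidneys of mice aged 8 weeks, and every well name holds "uuo", an abbreviation that is not written out. The strain, sex, genotype and treatment of the animals, and which wells came from which animal, are not given in the sources used here. Each plate was therefore taken as 1 sample, and differences between gates were judged only by their repeat in the other batch and by the spread over wells, with no p-value.

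Wells of under 10000 reads, or with under 500 genes read, were left out, leaving 92 CD45+ and 93 CD45- wells in batch 1 and 90 CD45+ and 93 CD45- wells in batch 2. Values of single wells are given for wells of at least 50000 reads, 76 and 79 in batch 1 and 78 and 82 in batch 2. The level of a gene in a plate is its summed reads as a proportion of the plate's reads on all genes, on the CPM scale of RNA sequencing. The reads of the 4 plates numbered 26479862 to 31756482. Markers followed the CD45 part of the gates: those of leukocytes summed to 28044 and 23762 CPM on CD45+ plates, against 151 and 426 CPM on CD45- plates, and markers of mesenchymal cells to 714 and 2731 CPM, against 16078 and 19291 CPM. Without replicate 18, a collagen-rich CD45+ well of batch 2, the 2731 CPM became 226.5 CPM. The Pdgfrb transcript went against the PDGFRB+ part of the CD45+ label, since it was nearly absent there (0.113 and 5.73 CPM, against 294 and 219.6 CPM on CD45- plates), and 151 of its 163 CD45+ reads of batch 2 lay in 1 well. Red cell markers were far higher in the CD45- gate, with 25.6 and 21.1 CPM on CD45+ plates and 13893 and 2957 CPM on CD45- plates, and all 7 had reads in each plate. Replicate 43 held 47.98% of these reads in the CD45- plate of batch 1, which had 7302 CPM without it. In plate sums, fewer cells that make a transcript and less of it per cell cannot be told apart, so values by well are given beside them.

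Iron is held inside cells in ferritin, a hollow shell built from heavy chains (Fth1), which oxidize the metal, and light chains (Ftl1), which help it to settle in the core. Iron bound to transferrin enters through the receptor Tfrc, iron is freed from heme by Hmox1, and iron leaves the cell through Slc40a1. Macrophages take up old red cells and recycle their iron, and Slc11a1, a solute carrier known for its role in resistance to microbes, moves divalent metals out of their phagosomes. Iron regulatory proteins bind a hairpin, the iron-responsive element, in messenger RNAs of this group when iron is scarce. In the 5′ UTR the hairpin blocks translation, and in the 3′ UTR it protects the message from decay, so that ferritin protein can change with no change of its transcript.

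The hairpins are printed because they are a sequence feature that only some of the 6 genes hold. The motif, a bulged C, then 5 bases, the loop CAGTGN and 5 bases that pair with the first 5, was searched on the sense strand of transcripts of the GENCODE annotation of the GRCm38 build. It was found in 294 of 21901 coding genes (1.342%), among them Fth1, Ftl1, Slc40a1 and Tfrc, and not in Hmox1 or Slc11a1. Fth1, Ftl1 and Slc40a1 held 1 match each, in the 5′ UTR, and Tfrc held 4, all in the 3′ UTR. The matches lie within 1 exon at chr19:9982732-9982760 on the plus strand (Fth1), chr7:45459779-45459807 on the minus strand (Ftl1), chr1:45925465-45925493 on the minus strand (Slc40a1) and, for the first of Tfrc, chr16:32631219-32631247 on the plus strand. Capitals mark the bulged C and the 6-base loop.
Fth1: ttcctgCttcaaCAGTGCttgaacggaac
Ftl1: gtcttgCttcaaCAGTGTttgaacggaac
Slc40a1: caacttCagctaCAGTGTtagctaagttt
Tfrc: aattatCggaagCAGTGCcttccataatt
The Fth1 and Ftl1 hairpins share the paired bases next to the loop, whereas Slc40a1 and Tfrc carry the bulge and loop on other stems. A match is a description of the letters and not evidence of binding.

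Fth1 (ENSMUSG00000024661) was read in every well of both gates and was higher in CD45+ cells in both batches. Batches 1 and 2 gave plate levels of 20749 and 14629 CPM for CD45+, against 4503 and 4352 CPM for CD45-. In batch 1 the CD45+ wells ran from 1537 CPM over a median of 15503 to 117964 CPM, and the CD45- wells from 139 over 3631 to 15653 CPM. In batch 2 the CD45+ wells ran from 755 over 14099 to 302858 CPM, and the CD45- wells from 64.2 over 3417 to 24780 CPM. The gates therefore overlapped at their edges and not in their middle: 69 of 76 and 73 of 78 CD45+ wells stood above the median of the CD45- wells of their batch. Only 1 of 79 and 2 of 82 CD45- wells stood above the CD45+ median. The log2 ratio of CD45+ over CD45-, taken on plate CPM plus 1, was 2.20 in batch 1 and 1.75 in batch 2. The median ratio of the 12882 genes of at least 1 CPM on average was -0.39 and -0.56, and Fth1 stood at or above 87.8% and 87.1% of them.

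**Figure D1:**
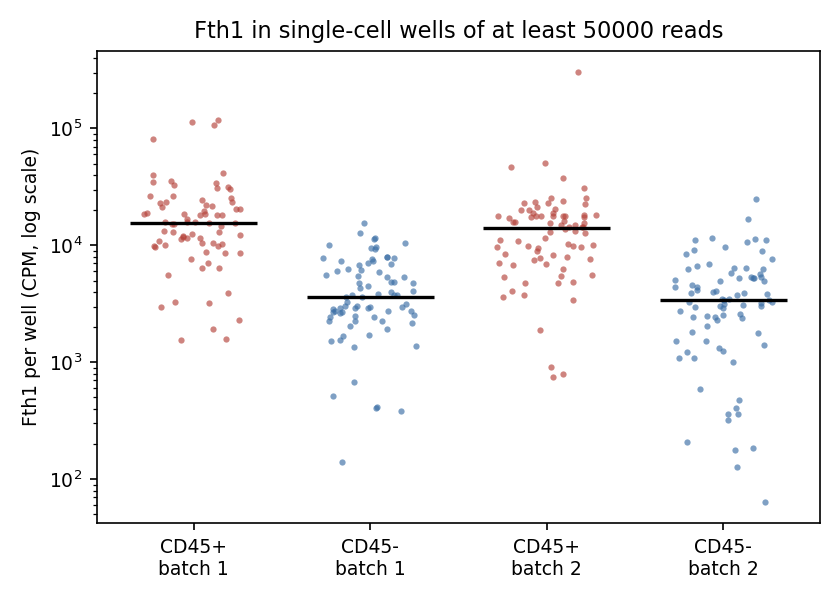
Fth1 level per well (CPM, log axis) in CD45+ (red) and CD45- (blue) wells of at least 50000 reads, by batch; each point is 1 well and the bar is the median. The CD45+ medians of 15503 and 14099 CPM lie near the upper edge of the CD45- wells, whose medians are 3631 and 3417 CPM, and 1 CD45+ well of batch 2 reaches 302858 CPM.

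A gene was called different between the gates where both batches differed at least 4-fold the same way, a log2 ratio of 2. Fth1 passed this line in batch 1 and missed it in batch 2, so it was not called; the log2 ratio in batch 2 became 2.32 with edgeR TMM factors, 2.37 with DESeq2 size factors and 2.05 where the wells' CPM were averaged with equal weight, and in these settings it was called. A few wells carried much Fth1. In batch 1 replicates 80, 10 and 42 of the CD45+ plate held 117964, 114258 and 106335 CPM, and replicate 80 alone held 19.6% of the plate's Fth1 reads. Without it the plate level was 17276 CPM and the log2 ratio 1.94. In batch 2 replicate 90, at 302858 CPM, had only 70855 reads in all, so it weighed little in the plate. These 4 wells were leukocyte wells by their markers, at 41160, 11248, 7418 and 16117 CPM of the summed leukocyte list, and their C1q levels ranged from 923 to 16143 CPM. At the other end, 3 of 78 CD45+ wells of batch 2 held under 1000 CPM of Fth1, against 11 of 82 CD45- wells, and in batch 1 none of 76 did, against 6 of 79.

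Ftl1 (ENSMUSG00000050708), the light chain, had few reads in these tables: 1192 and 708 in the CD45+ plates and 299 and 102 in the CD45- plates, against 549440 and 416333 Fth1 reads in the CD45+ plates. Its levels were 45.02 and 24.9 CPM in the CD45+ plates (Poisson 95% intervals 42.5 to 47.6 and 23.1 to 26.8) and 10.2 and 3.21 CPM in the CD45- plates (9.07 to 11.4 and 2.62 to 3.90). Such intervals cover counting error only, and reads without molecular identifiers are not independent molecules. Besides the separate mitochondrial ferritin gene Ftmt, with 18 reads over the 4 plates, the deposited tables hold rows for near-identical copies of the ferritin genes. Fth-ps2 had 191 reads over the 4 plates, Ftl2-ps 159, Ftl1-ps2 67 and Ftl1-ps1 42. How reads that match several of these copies were counted is not stated, so the level of Ftl1, and its distance from Fth1, is uncertain. Adding the copies' reads to the ferritin genes gave Ftl1 log2 ratios, CD45+ over CD45-, of 2.07 and 2.36.

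The log2 ratio of Ftl1, CD45+ over CD45-, was 2.04 in batch 1 and 2.62 in batch 2, which placed it at or above 87.03% and 90.8% of the genes. It was the only 1 of the 5 measured genes called higher in CD45+, where 4.33% of all 12882 genes were. The well medians were 5.96 and 4.77 CPM in CD45+ and 0 in both CD45- plates, and the highest wells held 1206 and 489 CPM in CD45+ and 482 and 25 CPM in CD45-. After each well was thinned at random to 50000 reads, 35.5% and 24.4% of CD45+ wells had an Ftl1 read (exact 95% intervals 24.9 to 47.3% and 15.3 to 35.4%), against 12.7% and 9.76% of CD45- wells (6.24 to 22.05% and 4.31 to 18.3%), and the intervals overlapped in batch 2. With all reads, 57 of 76 and 50 of 78 CD45+ wells had one, against 34 of 79 and 32 of 82 CD45- wells. The call lay close to its line: leaving out any of 8 wells of batch 1 ended it, the lowest ratio being 1.69 without replicate 47 of the CD45+ plate. With equal weight for each well the ratio of batch 1 was 1.99, and with 10 CPM in place of 1 as pseudocount the ratios were 1.45 in batch 1 and 1.4004 in batch 2. Leaving out 1 collagen-rich CD45+ well and the CD45- wells rich in C1q, an alternative added after the values were known, gave 1.99 in batch 1 and also ended the call.

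Slc40a1 (ENSMUSG00000025993), the only known cellular iron exporter, ran the other way and was nearly absent from the CD45+ gate. It had 15 reads and 1 read in the CD45+ plates, against 826 and 777 reads in the CD45- plates. The levels were 0.566 and 0.0351 CPM in CD45+ (0.317 to 0.934 and 0.00089 to 0.196) and 28.1 and 24.5 CPM in CD45- (26.3 to 30.1 and 22.8 to 26.3). The log2 ratios were -4.22 and -4.62, and Slc40a1 was the 1 gene of the 5 called lower in CD45+, as were 12.9% of all genes. By the reads of batch 2 alone, the level in CD45- was 696 times that in CD45+, with a counting interval of 125 to 27539 that reflects the single CD45+ read. No thinned CD45+ well had a read, 0 of 76 and 0 of 78 (upper limits 4.74% and 4.62%), against 11.4% and 8.54% of CD45- wells (5.34 to 20.5% and 3.50 to 16.8%). The intervals overlapped in batch 2.

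The exporter came from few CD45- cells. The median well held 0 CPM in all 4 plates, so the plate level is not that of a typical CD45- well. In batch 1 replicates 73 and 72 held 1313 and 1007 CPM, and in batch 2 replicates 45, 43 and 22 held 731, 623 and 349 CPM; the 3 richest wells held 96.2% and 90.1% of each CD45- plate's Slc40a1 reads. Without the richest well the plate levels were 14.2 and 14.5 CPM, and the ratios, at -3.28 and -3.90, stayed past the line. With 10 CPM in place of 1 as pseudocount the ratios were -1.85 and -1.78 and the call was lost. Of these 5 wells, 4 carried mesenchymal markers at 3243 to 26895 CPM in sum. The fifth, replicate 43 of batch 2, carried tubule markers at 18988 CPM and mesenchymal markers at 244 CPM. Replicate 72 of batch 1, the well at 3243 CPM, also held 477 CPM of macrophage markers, with 0 CPM of C1q and 14.6 CPM of leukocyte markers. The wells of its plate had medians of 5762 CPM of mesenchymal and 16.9 CPM of macrophage markers. Of the 15 CD45+ reads of batch 1, 11 lay in replicate 60, at 41.8 CPM.

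Tfrc (ENSMUSG00000022797) was too low to compare. It had 16 reads and 0 reads in the CD45+ plates, against 2 reads and 1 read in the CD45- plates, which is 0.604 CPM and an upper Poisson bound of 0.130 CPM in CD45+, and 0.0682 and 0.0315 CPM in CD45-. Of the 16 reads, 11 lay in 1 well, replicate 82. At this depth no difference in the transferrin receptor could be seen in either direction, and Tfrc fell under the minimum of 1 CPM on average set for comparison.

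Slc11a1 (ENSMUSG00000026177) was higher in CD45+ in both batches, with 41.6 and 42.3 CPM on CD45+ plates (39.2 to 44.1 and 39.9 to 44.7) and 7.91 and 15.2 CPM in the CD45- plates (6.92 to 8.99 and 13.9 to 16.6). The log2 ratios of 2.26 and 1.42 did not pass the line in batch 2, and the ratio there depended on single wells of both gates. Replicate 96 of the CD45- plate of batch 2 held 546 CPM and 74.9% of that plate's Slc11a1 reads. Without it the ratio was 3.15 and the gene was called. That well carried mesenchymal markers at 43368 CPM, C1q at 511 CPM and leukocyte markers at 566 CPM. Replicate 18 of the CD45+ plate of batch 2, the collagen-rich well, held 27.3% of that plate's Slc11a1 reads. Without it the ratio was 1.04. In batch 1 replicate 73 of the CD45+ plate held 829 CPM and 50.9% of the reads, and the ratio without it was 1.30. The share of thinned wells with a read was 11.8% and 23.1% in CD45+ (5.56 to 21.3% and 14.3 to 34%), against 3.80% and 3.66% in CD45- (0.79 to 10.7% and 0.761 to 10.3%), and the intervals overlapped in batch 1. Wells of at least 100 CPM numbered 3 of 76 and 7 of 78 in CD45+, and 3 of 79 and 2 of 82 in CD45-. Among these CD45- wells, replicate 66 of batch 1 and replicate 18 of batch 2 held 1943 and 3267 CPM of C1q. Their leukocyte markers summed to 36.1 and 85.1 CPM. The median well held 0 CPM in every plate.

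Hmox1 (ENSMUSG00000005413), which opens the heme ring and frees its iron, was higher in CD45+ plates by less. It had 55.3 and 75.1 CPM on CD45+ plates (52.5 to 58.2 and 71.9 to 78.3), against 14.8 and 36.3 CPM in the CD45- plates (13.4 to 16.2 and 34.2 to 38.5), with log2 ratios of 1.84 and 1.03. The intervals of the share of thinned wells with a read overlapped between gates in both batches, at 17.1% and 16.7% in CD45+ (9.43 to 27.5% and 9.18 to 26.8%) and 11.4% and 13.4% in CD45- (5.34 to 20.5% and 6.89 to 22.7%). The plate levels came from a few rich wells. In CD45+, 6 wells of batch 1 held 141 to 1555 CPM and 5 wells of batch 2 held 342 to 5278 CPM. In CD45-, 4 wells of each batch held at least 100 CPM, from 241 to 514 CPM in batch 1 and from 276 to 717 CPM in batch 2. Leaving out single wells moved the ratio of batch 1 between 1.16 and 2.27, and that of batch 2 between 0.62 without replicate 83 of CD45+ and 1.95 without replicate 27 of CD45-.

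By their markers, the Hmox1-rich CD45- wells were of several kinds. In batch 1 replicates 54, 10 and 30 held 4735, 17154 and 2208 CPM of endothelial markers, and replicate 80 held 819 CPM of endothelial and 1023 CPM of mesenchymal markers. In batch 2 all 4 wells carried mesenchymal markers, at 14786 to 46973 CPM, and the richest of them, replicate 27, also held 1011 CPM of endothelial markers. Replicate 10 of batch 1 and replicate 66 of batch 2 also held 1181 and 1036 CPM of C1q. Among CD45- wells with at least 2 of 7 endothelial markers at 100 CPM or more, 27 in batch 1 and 30 in batch 2, Hmox1 levels were 43.1 and 67.9 CPM, against 5.05 and 24.4 CPM in the other 52 wells of each batch. In the same split Slc40a1 levels were 1.47 and 6.87 CPM for endothelial-marker wells, against 37.6 and 31.2 CPM in the others. In batch 2, replicate 27 held 573 of the 583 Hmox1 reads of the endothelial-marker wells, and without it their level was 1.28 CPM, below that of the other wells. In batch 1 the level without the richest well, replicate 54, was 28.1 CPM. For Slc40a1 the levels without the richest well of each set were 1.13 and 1.17 CPM, against 18.8 and 17.5 CPM. These splits were made after the values were known.

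**Figure D2:**
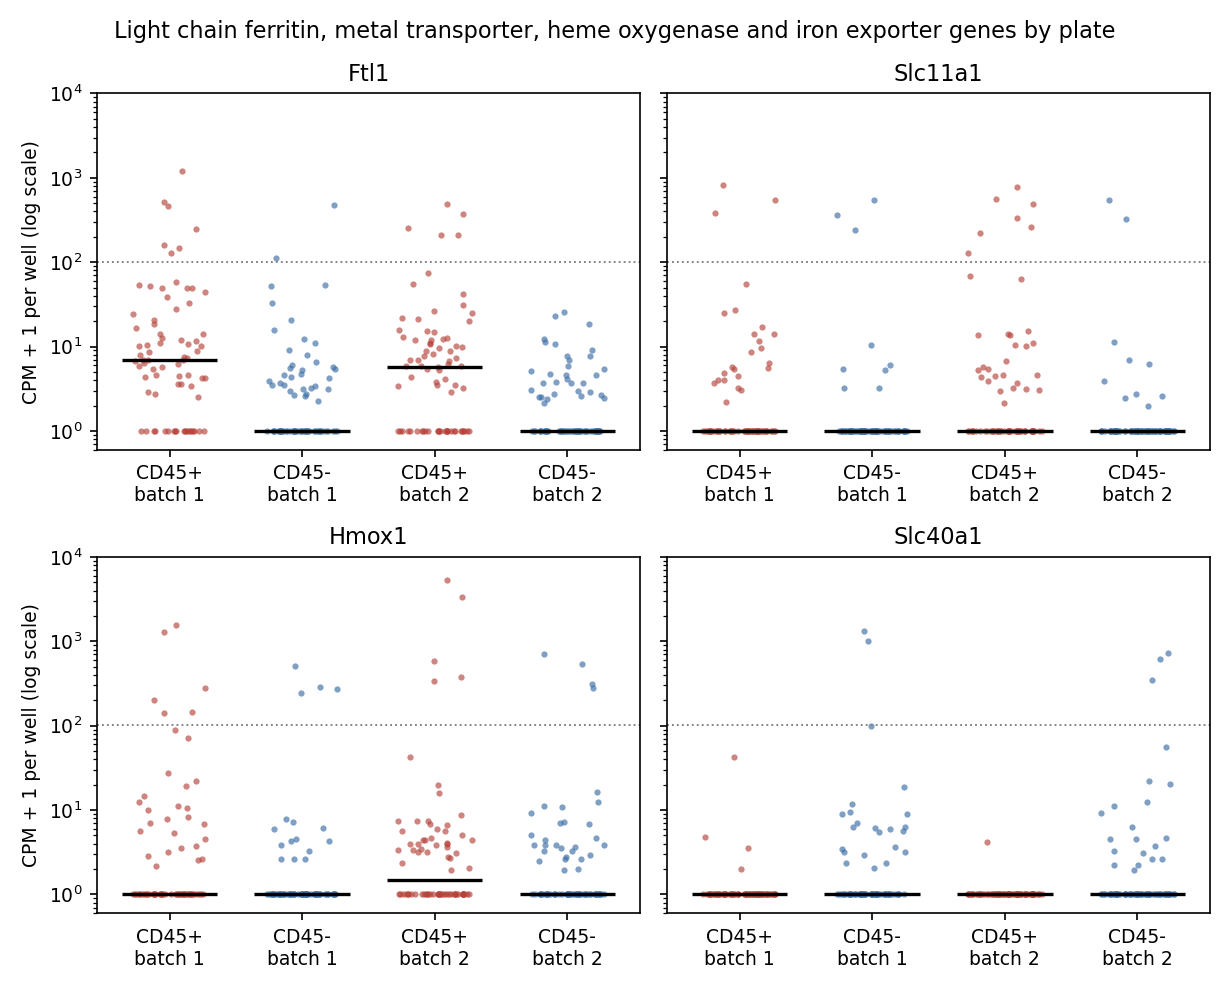
CPM plus 1 per well (log axis) of Ftl1, Slc11a1, Hmox1 and Slc40a1 in CD45+ (red) and CD45- (blue) wells of at least 50000 reads, by batch; each point is 1 well, the bar is the median and the dotted line marks 100 CPM. Only Ftl1 has a CD45+ median above 0 in both batches (5.96 and 4.77 CPM, against 0). After thinning to 50000 reads, 35.5% and 24.4% of CD45+ wells had an Ftl1 read. The other genes lie at or near 0 in most wells with a few wells above 100 CPM, and Slc40a1 reaches 100 CPM in CD45- wells only.

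**Figure D3:**
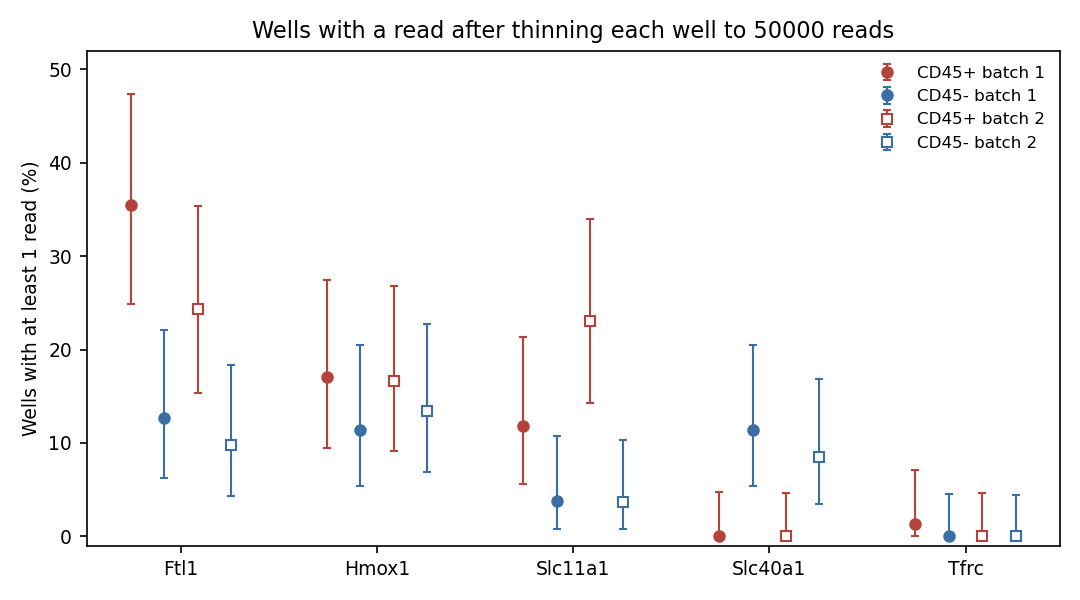
Percent of wells with at least 1 read of a gene after each well was thinned to 50000 reads, by plate (CD45+ red, CD45- blue, batch 1 filled circles, batch 2 open squares), with exact 95% binomial intervals. The shares of Ftl1, Slc11a1 and Hmox1 are higher in CD45+ in both batches. Slc40a1 was read in no CD45+ well and in 11.4% and 8.54% of CD45- wells. The intervals overlap for Hmox1 in both batches, for Slc11a1 in batch 1, and for Ftl1 and Slc40a1 in batch 2. Fth1, read in all wells, is not drawn.

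For comparison, Ptprc was read in 1.27% and 6.10% of thinned CD45- wells and Pdgfrb in 1.32% and 2.56% of thinned CD45+ wells. Hbb-bs, a hemoglobin chain of red cells, was read in all 79 and 81 of 82 thinned CD45- wells, against 10.5% and 34.6% of thinned CD45+ wells. Across CD45- wells the Fth1 level showed little relation with summed red cell markers, with Spearman rho of -0.12 over 79 wells and -0.078 over 82 wells; the wells share a plate and the CPM scale.

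Genes around the 6 showed no common direction between the gates. Of 16 measured genes of iron uptake, reduction and export, 1 was called higher in CD45+ and 2 lower, with median log2 ratios of -0.08 and -1.84. Trf, the transferrin that carries iron to Tfrc, was the higher one, at 137 and 361 CPM in CD45+ against 5.25 and 62.8 CPM in CD45- (4.47 and 2.51). Steap3, a reductase of endosomal iron, was lower: it had 0 reads in the CD45+ plate of batch 1, where CD45- held 25.9 CPM, at least 229-fold lower against a floor of 3 reads for the plate, and 1.02 against 31.96 CPM in batch 2 (-4.03). Heph, a copper oxidase that works with the exporter, was also lower (-5.11 and -2.13), but without replicate 6 of the CD45- plate its ratio in batch 2 was -1.74 and the call was lost. Replicate 45 held 97% of the CD45+ Heph reads of batch 2, and the ratio without it was -5.26. Of 10 genes of iron sensing and ferritin turnover, 0 were higher and 1 was lower, with medians of 0.75 and 0.09. That gene was Ireb2, an iron regulatory protein that binds the hairpins above, at 0.151 and 4.32 CPM in CD45+ against 32.8 and 31.1 CPM in CD45- (-4.88 and -2.59). Replicate 59 held 95.9% of its CD45+ reads of batch 2, and the ratio without it was -4.77.

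Of 11 genes of heme and hemoglobin handling, 1 was called higher and 1 lower, with medians of 0.26 and 0.28. The scavenger receptor Cd163 (2.22 and 3.79) rested on 1 CD45+ well in each batch, replicates 53 and 80, with 86.1% and 97.3% of its reads, and came to 0.57 and 0.44 without them. It had 1 read and 0 reads in the CD45- plates, which in batch 2 makes it at least 136-fold higher in CD45+ against a floor of 3 reads; the log2 ratios of such genes depend on the pseudocount. Lrp1, a receptor that takes up heme bound to hemopexin among many ligands, was lower, at 9.52 and 29.6 CPM in CD45+ against 182 and 129 CPM in CD45- (-4.12 and -2.09), but without replicate 23 of the CD45- plate its ratio in batch 2 was -1.99 and the call was lost. Replicate 18, the collagen-rich well, held 55.1% of the CD45+ Lrp1 reads of batch 2, and the ratio without it was -3.13. Of 12 targets and partners of the stress factor NRF2, which also drives Fth1 and Hmox1, 0 were higher and 1, the thioredoxin reductase Txnrd1, was lower (-4.81 and -4.46), with medians of -0.29 and -0.37. Against the 4.33% of all genes called higher and the 12.9% called lower, these counts stand near the background. Taking genes without reads in a plate at the floor of 3 reads instead of a pseudocount gave list medians of -0.19 and -2.94, 0.76 and 0.22, 0.47 and 0.28, and -0.44 and -0.40 in the order above, beside -0.72 and -0.82 over all genes.

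**Figure D4:**
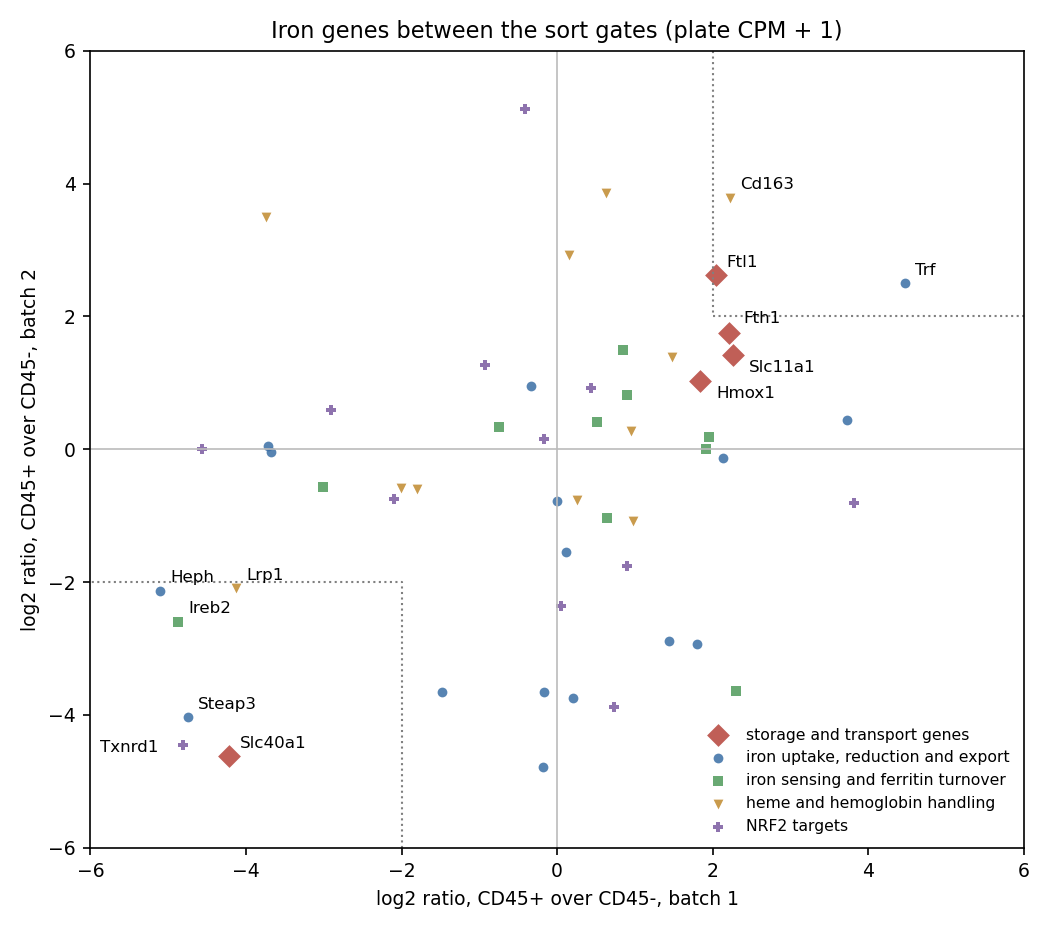
Log2 ratio of plate CPM plus 1, CD45+ over CD45-, in batch 1 (x axis) and batch 2 (y axis) for the measured storage and transport genes (large diamonds) and 4 lists of related genes; dotted lines bound the areas where both batches differ at least 4-fold. Ftl1 lies inside the upper area and Slc40a1 inside the lower one, while Fth1, Slc11a1 and Hmox1 lie to its left or below it.

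Among CD45+ wells, those rich in C1q were set against the rest. C1qa, C1qb and C1qc make the complement protein C1q and mark tissue macrophages. A well counted as C1q-rich with at least 1000 CPM of the 3 genes in sum, which held for 64 wells of batch 1 and 72 of batch 2 and left 12 and 6 other wells. The limit cuts a range: 11 and 6 C1q-rich wells and 5 and 4 other wells lay within 2-fold of it. The 5 macrophage markers outside the C1q genes summed to 5657 and 6673 CPM in C1q-rich wells, against 2980 and 2144 CPM in the other wells, but only Aif1 of these 5 was called higher, and Mpeg1 was at 199.8 CPM against 397 CPM in batch 1. Monocyte markers went the other way in batch 1, at 404 CPM against 2750 CPM, and not in batch 2, at 866 CPM against 22.5 CPM, and mesenchymal markers summed to 83.8 and 2974 CPM against 3798 and 33.7 CPM. Replicate 18 held 92.6% of the mesenchymal reads of the C1q-rich wells of batch 2, which summed to 229.8 CPM without it. Dendritic cell markers were lower in C1q-rich wells in both batches, at 0.323 and 68.3 CPM against 4.70 and 427 CPM, although without its richest well the other set of batch 1 held 0.484 CPM. Neutrophil markers were higher in C1q-rich wells in batch 1, at 1571 CPM against 257 CPM, and lower in batch 2, at 292 CPM against 943 CPM. Replicate 54 held 99.6% of the neutrophil reads of the other wells of batch 2, which had 4.44 CPM without it. T or B cell markers were at 24.4 and 39.8 CPM in C1q-rich wells, against 0.447 and 0 CPM, and 66.7% and 65.3% of the C1q-rich reads lay in 1 well of each batch. The part of these cell types in the values below was not tested.

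Fth1 was higher in C1q-rich wells, at 22490 and 15345 CPM against 12079 and 5932 CPM in the other CD45+ wells, log2 ratios of 0.90 and 1.37. The median log2 ratio of all genes in this comparison was 0.45 and 2.22, so Fth1 lay below it in batch 2. The C1q-rich wells of batch 1 ran from 1537 over a median of 15924 to 117964 CPM, against 3235 over 10399 to 114258 CPM in the other wells. In batch 2 they ran from 755 over 14673 to 302858 CPM, against 799 over 5167 to 14401 CPM. The wells overlapped over most of their range in both batches, and the difference of medians was small beside the spread of wells in batch 1. With equal weight for each well the ratio in batch 1 was 0.04. Replicate 10, at 923 CPM of C1q, lies just under the limit and held 114258 CPM of Fth1, and without it the summed ratio of batch 1 was 1.12 and Fth1 was called. With 3000 CPM as the limit the ratios were 1.05 and 0.35. The other CD45+ wells, with 172 to 923 and 344 to 814 CPM of C1q, also held more Fth1 in the median than the CD45- wells of their batch. These medians were 10399 and 5167 CPM against 3631 and 3417 CPM. In batch 2 the 5167 CPM came from 6 wells and lay between the CD45- quartiles of 1803 and 5357 CPM.

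**Figure D5:**
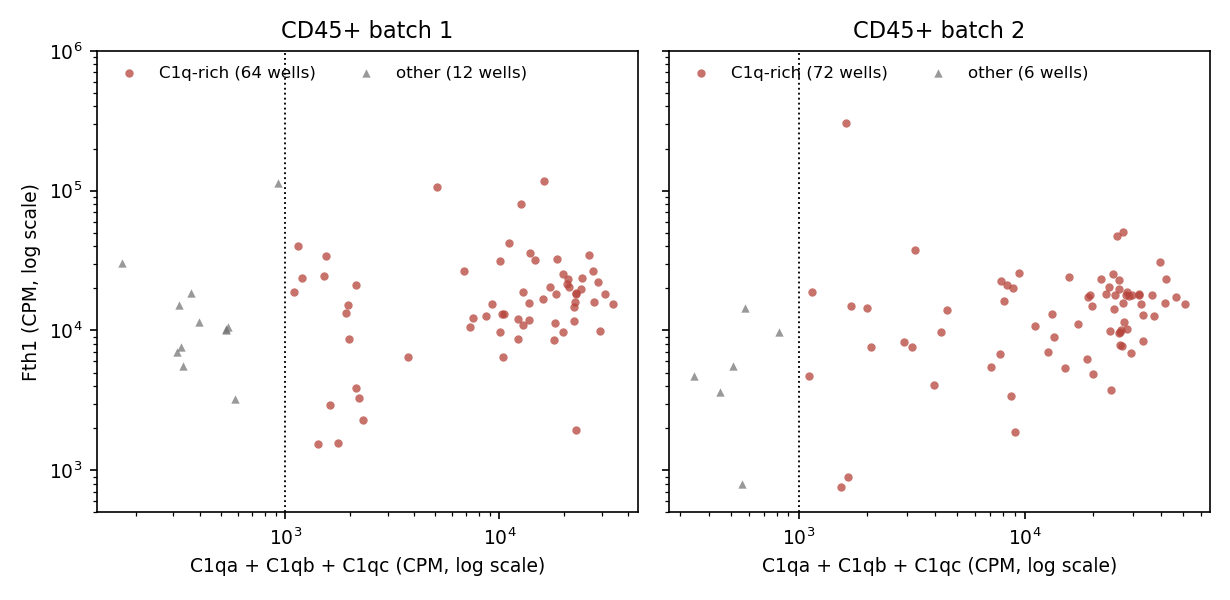
Fth1 against the summed C1qa, C1qb and C1qc level (both CPM, log axes) in CD45+ wells of at least 50000 reads, 1 panel a batch; each point is a well, circles are C1q-rich, triangles are other wells and the dotted line is the limit of 1000 CPM. High and low Fth1 wells occur on both sides of the limit, and the medians are 15924 against 10399 CPM in batch 1 and 14673 against 5167 CPM in batch 2.

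Ftl1, Hmox1 and Slc11a1 were called higher in C1q-rich wells, by at least 2-fold in both batches, and Fth1 was not. The background is large here: 25.1% of the 10031 genes of at least 1 CPM on average were called higher and 2.88% lower, and the median log2 ratio of all genes was 0.45 and 2.22. The other wells are few, 12 and 6, and the wells were split by a measured value, so these calls are given as a description. Ftl1 levels were 51.7 and 26.8 CPM in C1q-rich wells against 13.4 and 3.14 CPM in the others (1.87 and 2.75), where the others held 60 and 7 reads. Its well medians in batch 1, 5.99 and 5.55 CPM, were nearly equal, and in batch 2 they were 4.87 and 0 CPM. Thinned wells with an Ftl1 read made up 37.5% and 26.4% of the C1q-rich wells, against 25% (3 of 12) and 0% (0 of 6, upper limit 45.9%) of the others.

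Hmox1 levels were 64.8 and 81.8 CPM in C1q-rich wells against 12.3 and 1.80 CPM in the others (2.31 and 4.89). By share of thinned wells the order in batch 1 was the opposite, 15.6% of C1q-rich wells against 25% of the others, and the median of the C1q-rich wells was 0 CPM against 4.34 CPM. The plate ratio therefore came from rich wells, and replicate 21 held 41.1% of the C1q-rich reads of batch 1. All CD45+ wells with at least 100 CPM of Hmox1 (6 and 5), Ftl1 (7 and 5) or Slc11a1 (3 and 7) were C1q-rich, as were 64 of 76 and 72 of 78 CD45+ wells in all. Some of these rich wells also held markers of other cell types. In batch 2 replicate 18, rich in Hmox1 and Slc11a1, held 57430 CPM of mesenchymal markers. Replicate 3 of batch 2, rich in Ftl1, held 6737 CPM of tubule markers. In batch 1 replicate 38, the richest in Hmox1, held 1835 CPM of tubule and 4326 CPM of leukocyte markers. Slc11a1 levels were 49.9 and 46.1 CPM for C1q-rich wells, against 1.34 and 0.449 CPM in the others, which held 6 reads and 1 read (4.44 and 5.02). From the single read of batch 2 the ratio was 103, with a counting interval of 18.4 to 4053. Slc40a1 and Tfrc were under 1 CPM on average and were not compared. All 15 reads and 1 read of Slc40a1 lay in C1q-rich wells, and of the 16 Tfrc reads 11 lay in 1 other well.

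Among the related genes, the counts called higher in C1q-rich wells were 2 of 11 for iron uptake, reduction and export, 2 of 10 for iron sensing and ferritin turnover, 4 of 11 for heme and hemoglobin handling and 2 of 10 for NRF2 targets, beside 25.1% of all genes. Their median log2 ratios were 0.24 and 2.22, 0.39 and 1.35, 0.73 and 3.04, and 0.25 and 2.19, or 1.45 and 2.24, 0.16 and 1.74, 1.22 and 2.43, and 0.39 and 4.75 with genes without reads at the floor, beside 1.14 and 2.75 over all genes at the floor. Several of these calls rest on single wells. Without its richest C1q-rich well, the ratio of batch 1 was 0.41 for Mcoln1, 0.35 for Cd163, 0.19 for Srxn1, 0.25 for Mafg and -0.23 for Lrp1, and the ratio of batch 2 was 0.06 for Aco1. The divalent metal transporter Slc11a2 (4.46 and 3.86), the iron-sulfur assembly factor Nubp1 (4.19 and 3.87), the second heme oxygenase Hmox2 (2.51 and 3.54) and the porphyrin exporter Abcg2 (3.73 and 5.92) kept ratios of at least 2.17 in both batches without their richest C1q-rich well. Few reads of these genes lay in the other wells: 3 and 4 for Slc11a2, 2 and 1 for Nubp1 and 1 in each batch for Abcg2. Hmox2 had 3 reads and 0 reads there, so it was at least 7.89-fold higher in batch 2. Without its richest C1q-rich well Nubp1 was at 2.19 in batch 2, beside a median of 2.22 over all genes. Por, the reductase that feeds electrons to heme oxygenase, was the 1 gene called lower (-1.99 and -2.91), and the call was lost without replicate 84 of the other wells of batch 1, at -0.69.

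The levels of these genes showed at most weak rank relations over CD45+ wells. The Spearman rho between any 2 of Fth1, Ftl1, Hmox1 and Slc11a1 lay between -0.12 and 0.11 in batch 1 and between -0.07 and 0.30 in batch 2, over 76 and 78 wells that share a plate, its library and the CPM scale. After thinning the ranges were -0.12 to 0.21 and -0.02 to 0.30. The well medians of Ftl1, Hmox1 and Slc11a1 were 0 to 5.96 CPM, so a weak rho cannot show that their levels are unrelated. Wells with at least 100 CPM of any of Ftl1, Hmox1, Slc40a1 and Slc11a1 numbered 13 of 76 and 14 of 78 in CD45+ and 11 of 79 and 8 of 82 in CD45-. Of these, 3 and 2 CD45+ wells and 0 and 1 CD45- wells had 2 or more of the genes at that level. A single well had 3: replicate 83 of the CD45+ plate of batch 2, with 5278 CPM of Hmox1, 782 CPM of Slc11a1 and 489 CPM of Ftl1, also held 37375 CPM of Fth1. Replicate 22 of the CD45- plate of batch 2 held both Hmox1 (534 CPM) and Slc40a1 (349 CPM), beside 22411 CPM of mesenchymal markers.

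The genes whose levels over CD45+ wells were most like that of Fth1, out of 2324 genes read in at least 25% of the wells of each plate, were Tyrobp (rho 0.35 and 0.32), an adaptor of myeloid receptors, the lysosomal protease gene Ctsc (0.31 and 0.34) and C1qa (0.33 and 0.29). The same 3 genes led after thinning, and the rho of Fth1 with summed C1q was 0.25 and 0.36. All are weak. For Ftl1 the leading genes were Sf3b6 (0.27 and 0.32), Tmem256 (0.37 and 0.26) and Aqp1 (0.34 and 0.26), for Hmox1 they were Slamf8 (0.36 and 0.35), Hnrnpa2b1 (0.27 and 0.30) and Tmco1 (0.28 and 0.26), and for Slc11a1 they were Dazap2 (0.42 and 0.30), Naaa (0.28 and 0.31) and Lsm4 (0.29 and 0.24). After thinning none of these 9 was among the leading 3, so they are not read as a finding.

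In CD45+ wells with a read of Ccr2, a chemokine receptor of recruited monocytes, the summed Fth1 level was 21150 and 15070 CPM (69 and 68 wells), against 15366 and 11128 CPM in the 7 and 10 wells without one, but the well medians, 15695 and 13574 CPM against 11468 and 14696 CPM, changed order between batches. Wells above the median of the cytokine gene Il1b held 18664 and 11466 CPM of Fth1 in the median, against 11533 and 14456 CPM in wells at or below it, again in opposite order.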

How the data were processed

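Single-cell RNA sequencing counts of mouse kidney wells were used as deposited by the authors, with 1 table a batch and raw read counts per gene; per the labels' protocols, RNA of each sorted cell was made into libraries with Clontech SMARTer chemistry, and no molecular identifiers are described. The submitters' processing notes list STAR 3.0.4, Subread and featureCounts 1.4.5; the genome build, the annotation and the handling of reads with several matches are not given in the sources used here. Repeated gene lines (598 of 41192 and 595 of 41228) were dropped. Of all wells, 368 were kept and 16 left out, and a kept well had 10497 to 1246070 reads.

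Reads were summed over the kept wells of a plate, scaled to CPM, and set against each other inside each batch on the log2 scale after adding 1 CPM. Genes were called at 4-fold between gates, or 2-fold between C1q-rich and other wells, in both batches and the same way. No significance test was run, because each plate is 1 sample. Shares of wells used wells of at least 50000 reads thinned to 50000, with exact Clopper-Pearson 95% intervals. Named genes were the 6 genes, the called genes of 4 related lists, the 3 genes most like Fth1, Ftl1, Hmox1 and Slc11a1 by Spearman rho (genes read in at least 25% of wells), and marker genes. The 6 genes and all lists were chosen with earlier results of these data known, and the Ccr2, Il1b and endothelial splits and the 100 CPM level after values were seen. Alternatives covered scaling (edgeR 4.0.16, DESeq2 1.42.0 in R 4.3.3), pseudocounts, well and gene filters, C1q limits and single wells. Python 3.11.15, numpy 2.4.6, scipy 1.17.1, pandas 2.3.3 and matplotlib 3.10.9 were used.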

Additional observations from a re-analysis of the deposited data

Results flagged for a closer look

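Ferritin and heme oxygenase transcripts were also seen in the 16 wells left out of all comparisons for few reads or genes. Summed over these wells, Fth1 reached 12100 CPM, Ftl1 72.8 CPM from 9 reads and Hmox1 97 CPM from 12 reads, above the 24.3 CPM that 3 reads would give. Fth1 was read in all 16 wells, but the Ftl1 reads lay in 2 wells, 7 of them in 1, and the Hmox1 reads in 3 wells, 10 of them in 1. Without that well Ftl1 was at 17.4 CPM and Hmox1 at 17.4 CPM, under that floor. By plate, Fth1 in these wells was 14435 and 17196 CPM in CD45+ and 4433 and 4956 CPM in CD45-. Slc40a1, Slc11a1 and Tfrc had 0 reads there.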

How the results depend on the processing

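Between gates, 1 of the 5 measured genes was called higher in CD45+ (Ftl1) and 1 lower (Slc40a1). The count called higher was 2 with edgeR TMM factors, 3 with DESeq2 size factors, 4 with a 2-fold line and 0 with a pseudocount of 10, and it ranged from 0 to 2 when single wells were left out. Alternatives added after seeing the data gave 0 without the collagen-rich CD45+ well and the C1q-rich CD45- wells, 2 with well medians and 3 in batch 1 alone. The count called lower was 0 with a pseudocount of 10 and 0 with well medians, where Slc40a1 was under the minimum. No ratio of these genes that passed its line changed sign in the alternatives run. Smaller ratios were checked only for passing the line the other way, which none did. All genes called higher and lower numbered 558 and 1663, against 250 and 364 with a pseudocount of 10, 954 and 2841 at 2-fold, 165 and 648 with well medians, and 1696 and 3803 or 1506 and 4113 in batch 1 or 2 alone. In the C1q comparison 3 genes were called higher and 0 lower under each alternative scaling, pseudocount, well filter or limit that gave a value. Leaving out replicate 10 or 72 of the other wells of batch 1 added Fth1 to those called higher. All genes called were 1625 and 576 with a limit of 3000 CPM, against 2514 and 289, and 1515 higher with a pseudocount of 10. A limit of 100 CPM left no other wells. TMM factors moved the median of all genes to -0.085 and -0.080. Of 48 shares of wells at other depths, 19 moved outside their interval. The causes were not tested. No paired analysis was possible because replicate numbers follow accession order and no test was run.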
